A study of Mus musculus with 6 samples.

Results

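The 9 genes described here encode receptors for extracellular ATP and other nucleotides (P2rx4, P2rx7, P2ry1, P2ry2, P2ry6), adenosine receptors (Adora2a, Adora2b) and the cell surface enzymes that turn ATP into adenosine (Entpd1, Nt5e). They were chosen by gene name, and all 9 were found among the 54532 genes of the deposited count table. P2rx7 was taken up because its level differed between the groups in an earlier reading of these same libraries, so the values of RBPMS against control below are a description, with no p-value for any of the 9 genes.

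Cells release ATP when they are stretched, sheared or damaged. Extracellular ATP opens P2X receptors, which are cation channels, and activates P2Y receptors, which couple to G proteins. Ectonucleotidases then remove the phosphates in steps, and the adenosine that results acts on its own G protein-coupled receptors. In blood vessels this system is known for its control of vascular tone, platelet activation and leukocyte recruitment, and P2X7 is best known from macrophages, where high ATP opens it and the inflammasome is activated.

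The series compared RNA of cultured mouse endothelial cells after 72 h with a lentivirus for overexpression of RBPMS (n = 3) with RNA of the same cell type after 72 h with a lentivirus carrying the empty vector (control, n = 3). RBPMS is an RNA-binding protein that takes part in pre-mRNA splicing, and the series title places it in heart failure during aging. All 6 samples were grown in mouse endothelial cell medium with serum, and all received lentivirus. The labels give no strain, age, vascular bed or number of cultures, so the p-values given below rest on the variation among these 6 samples alone, some or all of which may be technical.

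Total counts ran from 15779567 to 23076124 per library. Rbpms itself had 131, 148 and 133 CPM (the count scaled to the size of its library, with TMM factors) in RBPMS libraries 1 to 3, against 57.1, 56.8 and 55.2 CPM in control libraries 1 to 3. Endothelial markers were abundant in every library, their summed level being 17471 to 18412 CPM in RBPMS libraries and 15757 to 20330 CPM in control libraries. Of the 10 listed, edgeR called 0 over all 6 libraries, with 1 at an unadjusted p under 0.05, against 0% and 7.56% of all tested genes. Without control library 3 it called Erg and Emcn higher and Kdr and Vwf lower, where 3.81% of all tested genes were higher and 3.43% lower. The log2 fold changes without control library 3 and over all 6 were 0.21 and 0.32 for Erg, 0.17 and -0.075 for Emcn, -0.21 and -0.014 for Kdr and -0.45 and -0.18 for Vwf, so that Emcn changed sign. Erg, Emcn and Kdr were named after their values were seen. Vwf, the von Willebrand factor gene and the most abundant, had 6051, 5439 and 5542 CPM in RBPMS libraries, against 7745, 7824 and 3692 CPM in control libraries. Control library 3 stood apart. Its log2 CPM correlated with the other libraries at 0.954 to 0.960 across genes, against 0.991 to 0.995 among the other 5, and it held less of long transcripts, with a median log2 difference of -0.52 from controls 1 and 2 in the 20% of tested genes with the longest annotated length and 0.52 in the shortest. The comparisons were therefore made both with all 6 libraries and without control library 3. The common coefficient of biological variation in edgeR was 0.196 over all 6 libraries and 0.0489 without control library 3. The p-values without it thus rest on a smaller estimated variation, with controls 1 and 2 alone in the control group.

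The P2X receptors were represented by P2rx7 and P2rx4, neighbours on chromosome 5 (GRCm38). P2rx7 (ENSMUSG00000029468, positions 122643911 to 122691432, plus strand) had 1456, 1738 and 1343 counts in RBPMS libraries 1 to 3, against 658, 651 and 558 counts in control libraries 1 to 3. In CPM these were 71.2, 80.8 and 73.6 in RBPMS libraries, against 41.4, 40.2 and 24.6 in control libraries. All 3 RBPMS libraries lay above all 3 controls, and control library 3 was the lowest. The mean was 75.2 ± 5.01 CPM in RBPMS libraries (SD, n = 3) and 35.4 ± 9.36 CPM in control libraries (SD, n = 3), or 40.8 ± 0.84 CPM in controls 1 and 2 alone (SD, n = 2). This gave a log2 fold change of 1.09 ± 0.21 (SE) over all 6 libraries and of 0.89 ± 0.068 without control library 3, where the ratio of the means was 1.84. In that fit it ranked 190th of 14123 tested genes by rise, and over all 6 libraries 86th of 13898. In bulk RNA, a change in the number of cells that express a gene and a change in its RNA per cell cannot be told apart.

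Control library 3 lay 0.72 below controls 1 and 2 for P2rx7 on the log2 scale, while genes of its length class, the next to longest of 5, had a median log2 difference of -0.20. With a trend on gene length removed from each library, the log2 fold change of P2rx7 was 1.02 over all 6 libraries and 0.88 without control library 3. The part of transcript length in the low level of that library was otherwise not tested.

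P2rx4 (ENSMUSG00000029470, 122707544 to 122729738, plus strand), a channel that needs less ATP to open than P2X7 and a sensor of shear stress in endothelium, did not share this pattern. Its levels were 81.9, 82.6 and 84.7 CPM in RBPMS libraries, against 85.3, 90.5 and 93.2 CPM in control libraries. The 3 RBPMS libraries lay just below the controls, and the log2 fold change was -0.11 ± 0.094 (SE) over all 6 libraries and -0.081 ± 0.053 without control library 3. The ratio of P2rx7 to P2rx4, both as CPM per kb of the deposited gene length, was 1.02, 1.15 and 1.02 in RBPMS libraries, against 0.57, 0.52 and 0.31 in control libraries. The size of this ratio depends on the length used, since per kb of the longest annotated coding transcript it was 0.48, 0.54 and 0.48 in RBPMS libraries, against 0.27, 0.24 and 0.14 in control libraries. On either length every RBPMS library had the higher ratio.

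The start regions of both genes are printed here because the neighbours behaved differently. The RefSeq promoter windows (GRCm38.p6, 250 bases before to 50 after the start, plus strand) are chr5:122643677-122643976 for P2rx7 and chr5:122707294-122707593 for P2rx4. Capitals mark matches, on either strand, to GGGCGG (the GC box), TATAAA (the TATA box), TGANTCA (AP-1) or CCGGAA (an ETS core), overlapping matches included.
P2rx7: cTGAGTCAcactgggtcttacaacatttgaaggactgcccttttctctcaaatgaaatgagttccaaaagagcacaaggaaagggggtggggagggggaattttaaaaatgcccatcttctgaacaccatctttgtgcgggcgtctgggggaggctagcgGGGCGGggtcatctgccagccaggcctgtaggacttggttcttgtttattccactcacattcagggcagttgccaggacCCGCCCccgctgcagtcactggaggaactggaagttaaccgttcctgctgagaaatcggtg
P2rx4: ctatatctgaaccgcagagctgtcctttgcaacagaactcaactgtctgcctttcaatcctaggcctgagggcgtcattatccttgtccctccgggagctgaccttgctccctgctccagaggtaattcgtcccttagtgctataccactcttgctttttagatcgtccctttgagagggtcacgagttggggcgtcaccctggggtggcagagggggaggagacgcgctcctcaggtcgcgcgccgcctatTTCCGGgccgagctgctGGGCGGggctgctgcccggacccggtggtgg
The P2rx7 window held 2 GC boxes and 1 AP-1 match, all before the start. The P2rx4 window held 1 GC box and 1 ETS core, both after the start. Neither held TATAAA. Of all 32851 promoter windows of this length, 35.7% held the GC box, 7.81% the AP-1 letters, 14.9% the ETS core and 13.6% TATAAA, on the same count. The P2rx7 window had 8 CpG dinucleotides, close to the median window with 7, against 18 in that of P2rx4. RefSeq gives P2rx7 another start, whose window, chr5:122650133-122650432, had 4 CpG dinucleotides and none of the 4 motifs. Windows were matched for 7 of the 9 genes, and those of P2ry1, P2ry2, Adora2b and the first of each of Entpd1 and Nt5e had 23 to 30 CpG dinucleotides. These are letters in a window, not evidence of binding.

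Other genes within 100 kb of P2rx7 gave no like values. Ift81, which encodes a protein of intraflagellar transport, had 23.9, 22.6 and 23.0 CPM in RBPMS libraries, against 23.3, 23.1 and 31.7 CPM in control libraries. Camkk2, a calcium-dependent kinase gene beyond P2rx4, had 135, 130 and 132 CPM in RBPMS libraries, against 149, 144 and 89.3 CPM in control libraries, and neither was called in either fit. Anapc5, a subunit gene of the anaphase-promoting complex, had 281 ± 8.07 CPM in RBPMS libraries and 321 ± 4.06 CPM in control libraries (SD, n = 3 each), with no overlap. Its log2 fold change was -0.19 over all 6 libraries and -0.18 ± 0.046 (SE) without control library 3 (edgeR adjusted p = 0.018), a call lost without control 1, control 2, RBPMS 1 or RBPMS 2 as well (adjusted p = 0.064, 0.12, 0.089 and 0.078). Mir8115, which lies inside P2rx7, had no count in any library, and the remaining annotated neighbours did not pass the filter on low counts.

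**Figure D1:**
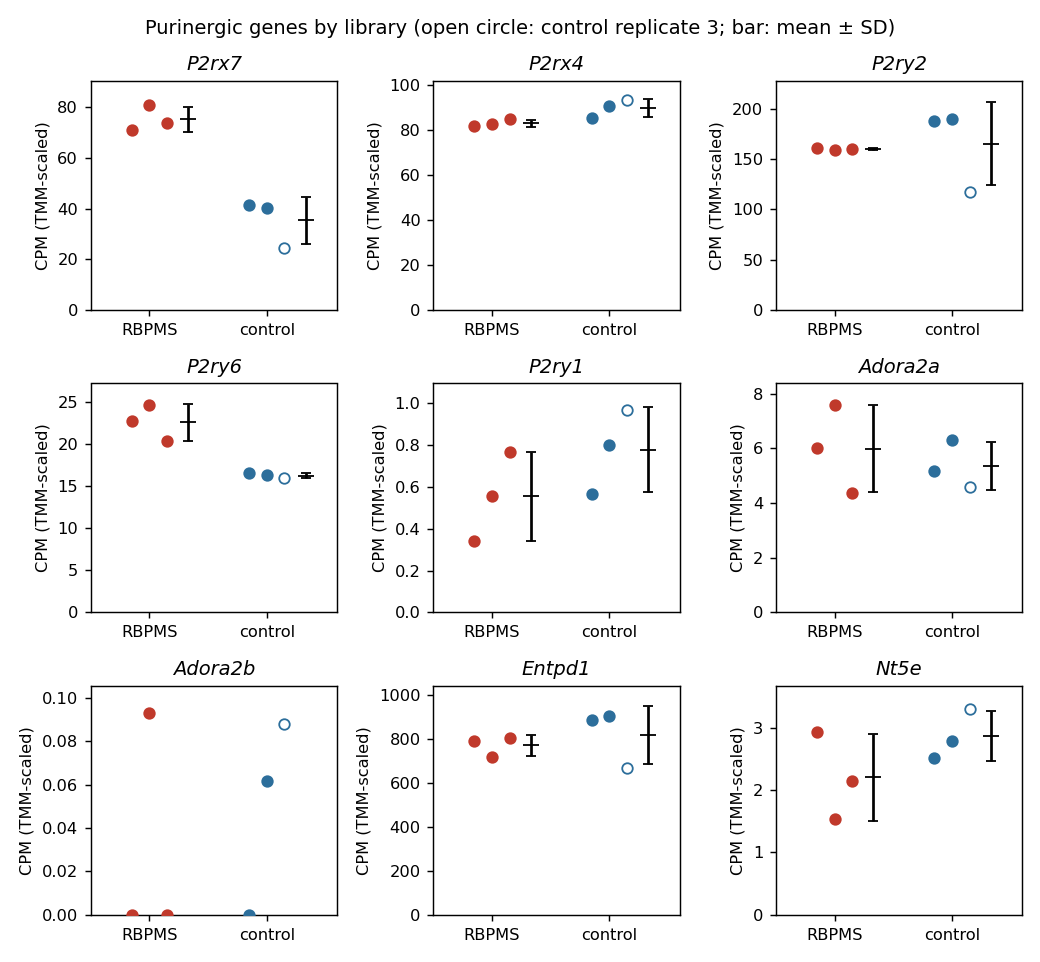
TMM-scaled CPM of the 9 genes in each library (vertical axes, each from 0). Points are libraries, with RBPMS in red, controls in blue and control replicate 3 as an open circle; bars are mean ± SD (n = 3), left out for Adora2b, which had at most 2 counts per library. The RBPMS libraries of P2rx7 sit at 71.2 to 80.8 CPM, above the controls at 24.6 to 41.4 CPM, and those of P2ry6 also sit above their controls.

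Among P2Y receptors, P2ry6 was higher in all RBPMS libraries, while P2ry2 was lower only when control library 3 was set aside. P2ry6 (ENSMUSG00000048779, chromosome 7, 100937630 to 100974649, minus strand) encodes a receptor activated best by UDP. Its levels were 22.7, 24.6 and 20.3 CPM in RBPMS libraries, against 16.5, 16.3 and 15.9 CPM in control libraries. The groups did not overlap, and control library 3 lay close to the other controls. P2ry6 had a log2 fold change of 0.47 ± 0.12 (SE) over all 6 libraries and 0.46 ± 0.099 without control library 3. Without strand, reads of P2ry6 and of the overlapping Gm44545 on the other strand cannot be told apart, and Gm44545 had 12, 11 and 6 counts in RBPMS libraries and 5, 7 and 21 counts in control libraries, against 263 to 529 counts of P2ry6 per library.

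P2ry2 (ENSMUSG00000032860, chromosome 7, 100996568 to 101012866, minus strand), the receptor for ATP and UTP that couples endothelial flow sensing to calcium release, was the most abundant of these receptors. Its levels were 160, 159 and 159 CPM in RBPMS libraries, against 188, 190 and 117 CPM in control libraries. The RBPMS libraries lay below controls 1 and 2 and above control 3, so the groups overlapped. The log2 fold change was -0.048 ± 0.19 (SE) over all 6 libraries and -0.24 ± 0.045 without control library 3, and it was 0.054 and 0.065 over the other 5 libraries when control 1 or control 2 was left out instead.

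P2ry1, the ADP receptor of platelets and endothelium, was near the limit of detection with 7 to 22 counts per library. It had 0.34, 0.56 and 0.77 CPM in RBPMS libraries, against 0.57, 0.80 and 0.97 CPM in control libraries. The groups overlapped, and the log2 fold change was -0.51 ± 0.40 (SE) over all 6 libraries and -0.31 ± 0.47 without control library 3. For scale, 3 counts, the limit that a count of 0 allows, correspond to 0.13 to 0.19 CPM depending on the library.

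The adenosine receptors were scarce. Adora2a, a Gs-coupled receptor known to raise cyclic AMP, had 6.01, 7.58 and 4.38 CPM in RBPMS libraries, against 5.15, 6.29 and 4.58 CPM in control libraries. The groups overlapped, with the highest and the lowest value both in the RBPMS group, and the log2 fold change was 0.17 ± 0.24 (SE) over all 6 libraries and 0.078 ± 0.20 without control library 3. Adora2b, the low-affinity adenosine receptor, had 0, 2 and 0 counts in RBPMS libraries, against 0, 1 and 2 counts in control libraries. No count was above that limit, so its level was not measurable at this depth and it entered no fit.

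Of the enzymes, Entpd1 was the most abundant of all 9 genes and Nt5e was scarce. Entpd1 (ENSMUSG00000048120, chromosome 19, 40612366 to 40741602, plus strand) encodes CD39, which converts ATP and ADP to AMP on the endothelial surface. Its levels were 788, 716 and 806 CPM in RBPMS libraries, against 884, 902 and 666 CPM in control libraries. Controls 1 and 2 lay above every RBPMS library and control 3 lay below every one, so the groups overlapped. Entpd1 contains the pseudogenes Gm8783 and Gm16027, which had 2 to 22 counts per library. The log2 fold change was -0.086 ± 0.15 (SE) over all 6 libraries and -0.21 ± 0.051 without control library 3. Nt5e (ENSMUSG00000032420, chromosome 9, 88327197 to 88372092, plus strand) encodes CD73, which converts AMP to adenosine. It had 2.93, 1.53 and 2.14 CPM in RBPMS libraries, against 2.51, 2.78 and 3.30 CPM in control libraries, from 33 to 75 counts. The groups overlapped, and the log2 fold change was -0.39 ± 0.28 (SE) over all 6 libraries and -0.27 ± 0.28 without control library 3.

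In counts, 8 of the 9 genes passed the filter on low counts. Over all 6 libraries 0 of these 8 passed the adjusted p threshold of 0.05 in edgeR's quasi-likelihood test, where the share of all 13898 tested genes was 0%, with 2 of the 8 and 7.56% of all genes at an unadjusted p under 0.05. Over the same libraries DESeq2 called 56 genes, P2rx7 among them, and limma-voom 0. Without control library 3 the threshold was passed by 2 genes that were higher with RBPMS, P2rx7 and P2ry6, and by 2 that were lower, P2ry2 and Entpd1, where the share of all 14123 tested genes was 7.24% in both directions, 3.81% higher and 3.43% lower. Nothing is read from these counts, or from any call of the 9 genes, since they were taken up with this contrast known. The call of Entpd1 was lost with control 1, control 2 or RBPMS 2 left out as well, and that of P2ry6 with control 2 left out. Among all 6 libraries the ranges of RBPMS and control were apart for 3 of the 8 (P2rx7, P2ry6 and P2rx4), against 24.7% of all tested genes, and without control library 3 for 5 of the 8 (P2ry2 and Entpd1 in addition), against 37.3%. The median log2 fold change of the 8 was -0.067 over all 6 libraries and -0.15 without control library 3, against -0.0083 and -0.0025 over all tested genes.

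**Figure D2:**
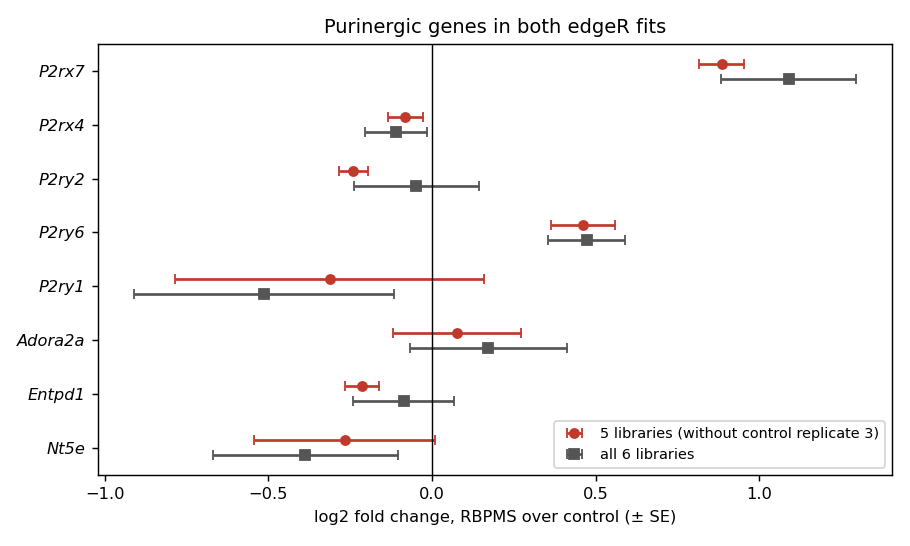
Log2 fold change of RBPMS over control (horizontal axis) with its SE for the 8 genes that passed the filter, in the edgeR fits without control replicate 3 (red circles) and with all 6 libraries (grey squares). P2rx7 lies at 0.89 and 1.09 and P2ry6 at 0.46 and 0.47, while P2ry2 and Entpd1 lie below 0 by more than their SE without control replicate 3 only.

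Levels were compared between genes per kb of the deposited gene length. In RBPMS libraries the order was Entpd1 at 138 ± 8.53 CPM per kb, P2ry2 at 40.6 ± 0.22, P2rx7 at 12.6 ± 0.84, P2rx4 at 11.8 ± 0.21, P2ry6 at 7.81 ± 0.75, Adora2a at 1.96 ± 0.52, Nt5e at 0.26 ± 0.082 and P2ry1 at 0.13 ± 0.050 CPM per kb (SD, n = 3 each). In control libraries it was Entpd1 at 147 ± 23.5 CPM per kb, P2ry2 at 42.0 ± 10.5, P2rx4 at 12.8 ± 0.57, P2rx7 at 5.92 ± 1.57, P2ry6 at 5.63 ± 0.11, Adora2a at 1.75 ± 0.28, Nt5e at 0.33 ± 0.047 and P2ry1 at 0.18 ± 0.047 CPM per kb (SD, n = 3 each). Neighbours in the order that overlapped between libraries were P2rx7 with P2rx4, and Nt5e with P2ry1, in RBPMS libraries, and P2rx7 with P2ry6 in control libraries. All other neighbours were apart. Per kb of the longest coding transcript P2rx7 stood 4th in RBPMS libraries, behind P2rx4, and 5th in control libraries, behind P2ry6.

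Summed over the 7 receptors, the level per kb was 74.4, 76.9 and 73.6 CPM per kb in RBPMS libraries, against 74.5, 75.8 and 54.6 CPM per kb in control libraries. Except for control library 3 the sum was nearly the same in every library. Within it P2rx7 took 16.0, 17.6 and 16.7% in RBPMS libraries, against 9.30, 8.88 and 7.54% in control libraries. P2ry2 took 54.9, 52.6 and 55.1% in RBPMS libraries, against 64.3, 63.7 and 54.8% in control libraries. The share of P2rx7 was thus higher in every RBPMS library than in any control, and that of P2ry2 lower than in controls 1 and 2 but not than in control 3. Per kb of the longest coding transcript P2rx7 took 13.5 ± 0.67% in RBPMS libraries and 6.69 ± 0.95% in control libraries (SD, n = 3 each).

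**Figure D3:**
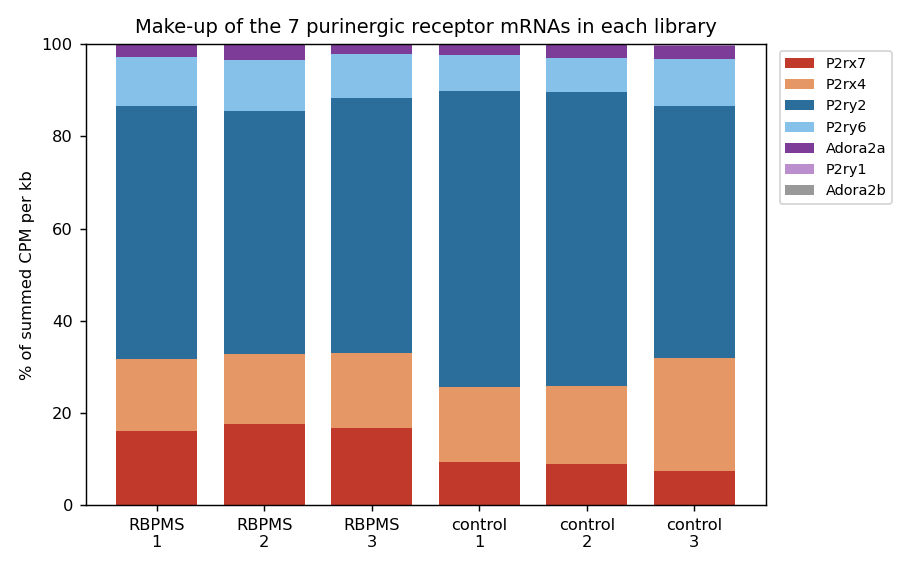
Share of each receptor in the summed CPM per kb of the 7 purinergic receptor genes (vertical axis, %), per library. P2rx7 (red, at the base) takes 16.0 to 17.6% in the 3 RBPMS libraries and 7.54 to 9.30% in the 3 control libraries, and P2ry2 (dark blue) is the largest part of every bar.

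Because P2X7 is best known from macrophages, the markers of leukocytes were set beside it. Of 10 listed markers Adgre1 and Tyrobp had 0 counts in every library, and Ptprc, Csf1r, Itgam, Fcer1g, Aif1 and Cx3cr1 each averaged below 0.15 CPM in both groups. The remaining markers were the lysozyme gene Lyz2, at 1.42 CPM in RBPMS libraries and 1.37 CPM in control libraries, and Cd68, a lysosomal protein that other cell types also make, at 55.5 CPM in RBPMS libraries and 43.2 CPM in control libraries. Lyz2 averaged 0.91 CPM in controls 1 and 2 alone. Its log2 fold change was 0.018 ± 0.46 (SE) over all 6 libraries and 0.65 ± 0.37 without control library 3 (edgeR adjusted p = 0.34). Of the 10 markers only these 2 passed the filter on low counts. Cd68 was the 1 called higher without control library 3, where 3.81% of all tested genes were called higher. The log2 fold change of Cd68 was 0.34 ± 0.072 there (SE, edgeR adjusted p = 0.0054), against 0.36 over all 6 libraries (adjusted p = 0.59). The call without control library 3 was lost in 1 alternative setting, where the log2 fold change was 0.25. The part of Cd68 in the level of P2rx7 was not tested. The summed level of the list was 55.1 to 60.4 CPM in RBPMS libraries and 42.6 to 47.5 CPM in control libraries, nearly all of it Cd68. The 10 markers of fibroblasts and mural cells summed to 6.40 to 7.34 CPM in RBPMS libraries and 5.68 to 9.05 CPM in control libraries, with Pdgfra at the top (5.13, 5.21 and 4.93 CPM in RBPMS libraries, against 6.79, 5.55 and 4.49 CPM in control libraries). The 7 epithelial and mesothelial markers summed to 17.0 to 21.2 CPM in RBPMS libraries and 21.4 to 26.1 CPM in control libraries, mostly Msln, with Epcam and Cdh1 at 0, and the 5 cardiomyocyte markers to 1.81 to 2.42 CPM in RBPMS libraries and 0.82 to 3.79 CPM in control libraries, led by Tnni3.

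Another 92 genes of the purinergic system were set beside these 9, in 8 lists. Of them 61 passed the filter without control library 3, where 5 were higher and 4 lower by edgeR's adjusted p, 14.8% of those tested against 7.24% of all genes. Over all 6 libraries 60 passed the filter and 0 were called, with 7 at an unadjusted p under 0.05. Their median log2 fold change was 0.014 without control library 3 and 0.080 over all 6 libraries. The lists were chosen with earlier results of these data known, so no response of the purinergic system is read from these shares. The p-values of single list genes below are likewise a description of these libraries.

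The other receptors of these families were nearly silent. P2rx3, a P2X channel of sensory neurons, had 2.41 ± 0.46 CPM in RBPMS libraries and 1.35 ± 0.42 CPM in control libraries (SD, n = 3 each), with all RBPMS libraries above all controls and log2 fold changes of 0.86 ± 0.30 (SE) over all 6 libraries and 0.63 ± 0.28 without control library 3 (edgeR adjusted p = 0.59 and 0.20). P2rx5 had 1.32, 1.16 and 0.55 CPM in RBPMS libraries, against 1.38, 0.99 and 0.84 CPM in control libraries, which overlap. P2rx1, P2rx2 and P2rx6 had at most 9 counts in any library. Of 5 other P2Y receptors P2ry12 and P2ry13 had 0 counts and P2ry4, P2ry10 and P2ry14 at most 7, and of the adenosine receptors Adora3 had 0 and Adora1 at most 5 counts.

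Of 16 other genes listed with the ectonucleotidases and pyrophosphatases, 8 were tested. Of these 3 rose and 0 fell without control library 3, where 3.81% of all tested genes were called higher. Over all 6 libraries 0 of the 8 were called in edgeR, with 2 at an unadjusted p under 0.05, against 0% and 7.56% of all tested genes. The tissue-nonspecific alkaline phosphatase gene Alpl, which also removes phosphate from nucleotides, was at 23.2 to 25.2 CPM in RBPMS libraries and 16.7 to 18.2 CPM in control libraries, with a log2 fold change of 0.46 ± 0.091 (SE, edgeR adjusted p = 0.0027). Cd38, an ectoenzyme that consumes NAD, had 243 ± 12.5 CPM in RBPMS libraries and 214 ± 23.8 CPM in control libraries (SD, n = 3 each), with a log2 fold change of 0.28 ± 0.050 (SE, edgeR adjusted p = 0.0013). Enpp5 had 99.9 ± 2.46 CPM in RBPMS libraries and 82.6 ± 4.06 CPM in control libraries (SD, n = 3 each), with a log2 fold change of 0.23 ± 0.051 (SE, edgeR adjusted p = 0.0063). For Alpl and Enpp5 all RBPMS libraries lay above all controls, as they did for 12.2% of all tested genes. Over all 6 libraries the log2 fold changes of Alpl and Enpp5 were 0.45 and 0.27. For Cd38 control library 3, at 241 CPM, lay among the RBPMS libraries, and the value over all 6 was 0.18. With control 1 left out as well the calls of Alpl and Enpp5 were lost (adjusted p = 0.062 and 0.083). Entpd3, Enpp2, Enpp3 and Acpp had 0 counts, as did Entpd4, whose near-identical copy Entpd4b may hold its reads.

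In adenosine uptake and metabolism, 1 of 10 tested genes fell and 0 rose without control library 3, where 3.43% of all tested genes were called lower. Over all 6 libraries 0 of the 10 were called in edgeR, with 1 at an unadjusted p under 0.05, against 0% and 7.56% of all tested genes. The gene that fell was Slc29a1, which encodes the equilibrative transporter that carries adenosine into cells. It had 110, 94.3 and 106 CPM in RBPMS libraries, against 134, 148 and 160 CPM in control libraries. The groups did not overlap, and control library 3 was the highest. The log2 fold change was -0.45 ± 0.061 (SE) without control library 3 (edgeR adjusted p = 8.4e-05) and -0.51 ± 0.12 over all 6 libraries (adjusted p = 0.59).

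Among 10 tested genes of ATP release and vesicular loading, 2 rose and 0 fell without control library 3, where 3.81% of all tested genes were called higher. With all 6 libraries edgeR called 0 of the 10, with 2 at an unadjusted p under 0.05, against 0% and 7.56% of all tested genes. Of the 10, 7 had a positive log2 fold change without control library 3, against 49.3% of all tested genes. Over all 6 libraries 8 of the 10 did, against 49% of all tested genes. Slc17a9, the gene of vesicular loading, had 0.83, 0.70 and 1.04 CPM in RBPMS libraries, against 1.95, 1.54 and 1.94 CPM in control libraries. Its log2 fold change was -1.08 ± 0.27 (SE) over all 6 libraries (edgeR adjusted p = 0.59). Without control library 3 it was -1.03 ± 0.34 (adjusted p = 0.070). This gene was named after its values were seen. Slco2a1, a prostaglandin transporter also described as part of an anion channel that passes ATP, had 2.42 ± 0.71 CPM in RBPMS libraries and 0.93 ± 0.43 CPM in controls 1 and 2 (SD, n = 3 and 2), and 0.66 CPM in control 3. Its log2 fold change was 1.54 over all 6 libraries (edgeR adjusted p = 0.59) and 1.38 ± 0.35 without control library 3 (SE, adjusted p = 0.019), with 0.98 without control 1 as well (adjusted p = 0.26) and 1.14 without RBPMS 2 as well (adjusted p = 0.089). Lrrc8a, a subunit of volume-regulated anion channels, had 18.8 ± 1.67 CPM in RBPMS libraries and 14.3 ± 1.49 CPM in controls 1 and 2 (SD, n = 3 and 2), and 28.2 CPM in control 3. Its log2 fold change was 0.40 ± 0.11 (SE, edgeR adjusted p = 0.025) without control library 3 and -0.014 over all 6 libraries. That call was lost without control 1, RBPMS 1 or RBPMS 2 as well (adjusted p = 0.26, 0.051 and 0.12).

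The inflammasome is the best-known effector of P2X7 in macrophages, and the cytokine genes of the interleukin 1 axis were at or near 0. Il1b and Il1rn had 0 counts in every library, and Il18 and Il1a at most 3. Of the inflammasome genes, Nlrp3 had 9, 12 and 10 counts in RBPMS libraries, against 2, 4 and 5 counts in control libraries. Pycard had 5, 2 and 3 counts in RBPMS libraries, against 6, 9 and 7 counts in control libraries, and Casp1 had 9 to 27 per library. Il1a, Il1b, Il18, Il1rn and Pycard passed the filter on low counts in neither fit, so they could not be called. Nlrp3 passed it only without control library 3. The log2 fold change of Nlrp3 there was 1.43 ± 0.62 (SE, edgeR adjusted p = 0.18), with all RBPMS libraries above controls 1 and 2. Casp1 was not called in either fit. These genes were named after their values were seen. Of 8 tested genes of this list 1 fell and 0 rose without control library 3, where 3.43% of all tested genes were called lower. With all 6 libraries edgeR called 0 of 7, with 1 at an unadjusted p under 0.05, against 0% and 7.56% of all tested genes. The gene that fell was the interleukin 1 receptor gene Il1r1, at 46.5, 44.9 and 45.6 CPM in RBPMS libraries and 59.3 and 61.5 CPM in controls 1 and 2, with a log2 fold change of -0.40 ± 0.064 (SE, edgeR adjusted p = 4.7e-04). With control 3 at 41.1 CPM the groups overlapped over all 6 libraries, where it was -0.24.

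Of 23 tested genes for G proteins and second messengers, 2 fell and 0 rose without control library 3. Of all tested genes 3.43% were called lower there, and 7.24% in either direction. With all 6 libraries edgeR called 0 of the 23, with 0 at an unadjusted p under 0.05, against 0% and 7.56% of all tested genes. Prkacb, a catalytic subunit of the cyclic AMP-dependent kinase, had 483 ± 7.49 CPM in RBPMS libraries and 566 ± 12.3 CPM in controls 1 and 2 (SD, n = 3 and 2), with a log2 fold change of -0.23 ± 0.044 (SE, edgeR adjusted p = 0.0027). Pde4b, which breaks down cyclic AMP, had 126 ± 5.98 CPM in RBPMS libraries and 145 ± 5.01 CPM in controls 1 and 2 (SD, n = 3 and 2), with a log2 fold change of -0.20 ± 0.051 (SE, edgeR adjusted p = 0.018), a call lost without control 2, RBPMS 1 or RBPMS 2 as well (adjusted p = 0.18, 0.12 and 0.051). Control library 3, at 409 CPM for Prkacb and 115 CPM for Pde4b, lay below the RBPMS libraries for both, and the log2 fold changes over all 6 were -0.088 and -0.099.

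**Figure D4:**
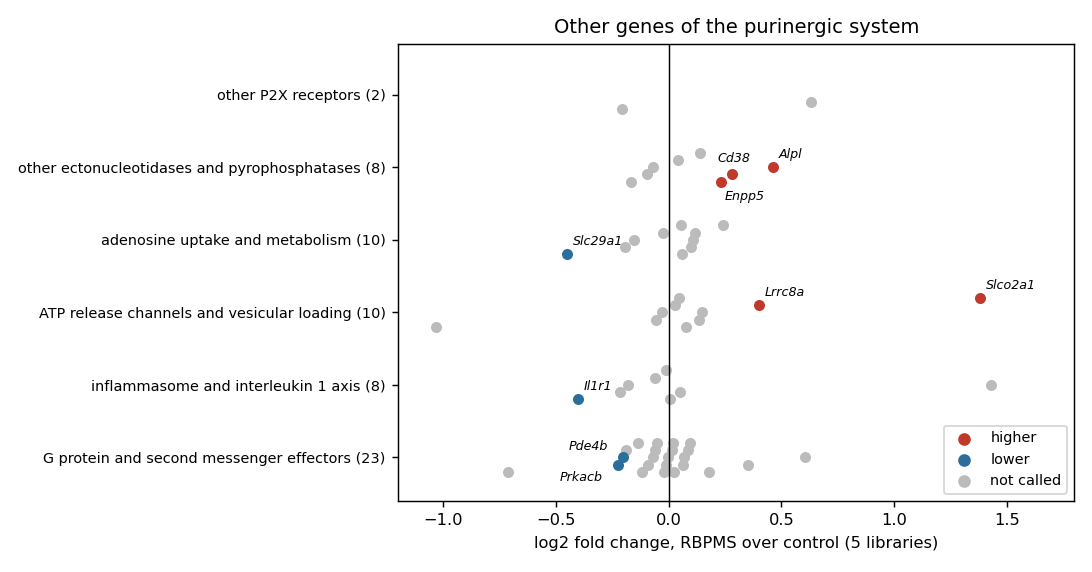
Log2 fold change of RBPMS over control without control replicate 3 (horizontal axis) for the other genes of the purinergic system that passed the filter, by list, with the number of genes in brackets. Red genes were called higher (5) and blue genes lower (4) at an edgeR adjusted p under 0.05, and grey genes were not called.

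The genes whose profile was closest to that of P2rx7 were found from log2(CPM + 0.5) centred on the mean of the 6 libraries, as the root mean square difference over these 6 values, among tested genes of at least 5 CPM with a descriptive symbol. The nearest 5 were Rps6ka2 (0.13), a kinase of the ERK pathway, Eda2r (0.14), which encodes an ectodysplasin receptor, the protocadherin gene Pcdh17 (0.14), the transcription factor gene Mnt (0.16) and the neutral ceramidase gene Asah2 (0.16). They lie on chromosomes 17, X, 14, 11 and 19. Pcdh17 had 40.4, 42.1 and 38.3 CPM in RBPMS libraries, against 22.6, 22.8 and 10.3 CPM in control libraries. Like P2rx7, each of the 5 was higher in all RBPMS libraries and lowest in control library 3, so part of the likeness is the value of that library. Of the other 7 of the 9 genes that were tested, P2ry6 came nearest with 0.40, against 0.67 for P2rx4.

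**Figure D5:**
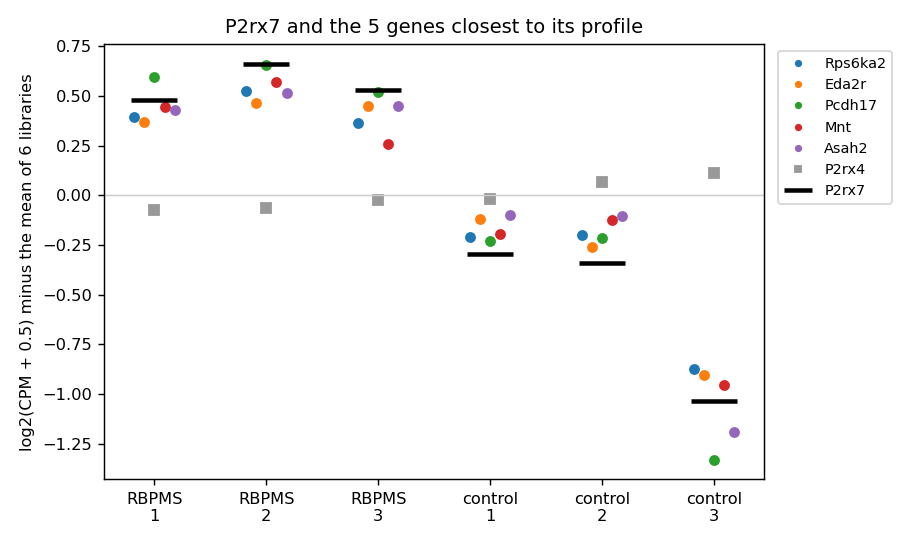
Log2(CPM + 0.5) minus its mean over the 6 libraries (vertical axis) for P2rx7 (black bars), the 5 genes nearest to it (coloured circles) and P2rx4 (grey squares), per library. The 5 genes lie above 0 in the 3 RBPMS libraries and furthest below it in control replicate 3, while P2rx4 stays close to 0 in every library.

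RBPMS is known to bind RNA with pairs of CAC letters, so the transcripts were searched for CAC, 1 to 12 bases of any kind, and CAC again, on the sense strand and without overlap, in the longest coding transcript of each gene (GENCODE M21). The 3′ untranslated region of P2rx7 held 11 such pairs in 2985 bases, or 3.69 per kb, a density above that of 80.4% of 17796 genes with a 3′ untranslated region of at least 200 bases. P2ry6 held 6 in 534 bases, or 11.2 per kb, above 99.5% of genes. P2rx4 held 6 pairs in 1425 bases, or 4.21 per kb, above 85.9% of genes, P2ry2 1 pair in 1407 bases, or 0.71 per kb, and Entpd1 6 pairs in 2573 bases, or 2.33 per kb. Of the remaining members, Adora2a had 3.54 per kb, above 78.4% of genes, and Nt5e 3.38 per kb, above 76.3%. Adora2b had 1.37 and P2ry1 0.94 per kb. The median over genes was 2.01 per kb, and 81.8% of genes held at least 1 pair. The first stretch of at most 30 bases with the most pairs in P2rx7, and the single pair of P2ry2, are shown for comparison, with each CAC in capitals.
P2rx7: CACatgaacCACACACatactCAC
P2ry2: CACCACcCAC
They begin at base 1668 of the untranslated region of P2rx7 and base 565 of that of P2ry2. No binding was measured in these samples, and the part of these pairs in any difference between the groups was not tested.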

How the data were processed

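The authors deposited 1 table of gene counts, as whole numbers, together with gene names, coordinates and lengths. Trizol was used to extract RNA, and libraries were made with a RiboZero kit followed by an NEB kit, per the labels' protocols. Per the submitters' processing notes, FastQC, Salmon and mm10 were used; neither the counting step nor its strand setting is stated in those sources. Each column name matched 1 sample's labels.

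The count model was run in R 4.3.3 with edgeR 4.0.16 (filterByExpr, TMM, quasi-likelihood test, group as the only term, Benjamini-Hochberg over all tested genes, threshold 0.05), with all 6 libraries and without control library 3. Levels are CPM with the TMM factors of all 6 libraries, and per kb values use the deposited length. SE is the log2 fold change over the root of F. A fold change takes in edgeR's prior count. Floors cover counting error only, while SD and SE take in the variation between libraries. The limit that a count of 0 allows is 3 counts. DESeq2 1.42.0 and limma 3.58.1 were alternatives. The fit was tested on simulated counts of these means and library sizes. No 2 libraries of a group agreed within sampling noise (chi-square per degree of freedom at least 3.19).

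Named genes are the 9 genes, called genes of each list (at most 5) or the 2 most abundant where none was called, the top marker of each cell type, neighbours within 100 kb that passed the filter, and the 5 nearest profiles. The members and lists were chosen with earlier results of these data known. 1 sequence is not reported here.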

Additional observations from a re-analysis of the deposited data

How the results depend on the processing

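Over all 6 libraries edgeR called 0 genes. It called 5 with no filter on low counts, 3 with a per-library trend on gene length and 56 with DESeq2, and with 1 library left out 0 to 1022, the highest without control library 3. Without control library 3 the count was 1022, and 415 to 1017 with 1 more library left out (415 without control 1). The log2 fold change of P2rx7 over all 6 libraries was 1.09 with DESeq2, and it was 0.89 to 1.22 with 1 library left out. Without control library 3 it was 0.83 to 0.93 with 1 more library left out. Same-numbered libraries did not deviate together (correlations of 0.051, -0.025 and 0.013), so the numbers were not taken to pair samples. With the replicate block 0 genes were called over all 6 libraries and 917 without control library 3, and P2rx7 had 1.12 and 0.90. P2rx7 was the 4th of the 9 genes per kb of deposited length in control libraries and the 5th per kb of the longest coding transcript, an alternative added after the data were seen.

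The direction of the log2 fold change turned for several genes that were not called over all 6 libraries. With 1 of all 6 libraries left out it was -0.24 to 0.065 for P2ry2, -0.034 to 0.35 for Adora2a, -0.22 to 0.40 for Lrrc8a, -0.29 to 0.23 for P2rx5, -0.15 to 0.18 for Camkk2, -0.27 to 0.022 for Pdgfra and -0.84 to 0.30 for Tnni3. Without control library 3 and 1 more it was -0.13 to 0.25 for Adora2a, -0.43 to 0.071 for P2rx5, -0.021 to 0.017 for Ift81 and -0.057 to 0.77 for Tnni3. Over all 6 libraries Lrrc8a had 0.066 with the replicate block and 0.045 with limma-voom, and with the length trend P2rx5 had 3.7e-04 and Camkk2 -0.13. Without control library 3 the replicate block gave 0.074 for P2rx5 and 0.0031 for Ift81, and Ift81 had 5.7e-06 with DESeq2 size factors, 0.0022 with no filter and 1.5e-05 with DESeq2. The cause was not tested. P2ry1, with at most 22 counts per library, is limited by depth.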
